A study of Mus musculus with 18 samples.

Results

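The thin filament genes described here are 8 troponins and 2 tropomyosins: Tnnc1, Tnnc2, Tnni1, Tnni2, Tnni3, Tnnt1, Tnnt2, Tnnt3, Tpm1 and Tpm2. They were taken by symbol and Ensembl identifier and are 10 of the 35275 genes listed for the 18 libraries. RNA-seq was made from C2C12 cells, a mouse myoblast line that can fuse into myotubes when serum is withdrawn. Per the labels all cells were a PAX7 NEG stock, so every group shares that background. The control cells carry the genotype label Wild-type, and the other lines overexpress MUNC, a long noncoding RNA made from DNA upstream of Myod1, in its spliced form (MUNC spliced, MS in the plots) or its genomic, unspliced form (MUNC genomic, MG in the plots). Each line was sampled at about 80% confluency in growth medium with 20% FBS (GM) and after 3 days in medium with 2% HS (DM3), with 3 biological replicates for each of the 6 groups. The labels do not say whether a line is 1 clone, which promoter drives MUNC or whether the control cells carry an empty vector. MUNC itself was not analysed here, so its overexpression was not checked.

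In striated muscle, tropomyosin lies along the actin filament and blocks the myosin binding sites at rest. The troponin complex holds it there: troponin C binds calcium, troponin I inhibits the contact of myosin with actin, and troponin T ties the complex to tropomyosin. Each troponin subunit has paralogs known from slow skeletal, fast skeletal and cardiac fibres, and embryonic skeletal muscle also uses the cardiac troponin T before the skeletal forms take over. Tropomyosin genes give both sarcomeric and cytoskeletal isoforms through alternative promoters and exons, and values per gene do not separate them.

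Levels are given in FPM, the deposited signal, which is a gene's reads divided by a size factor of its library. Library depth was 38416702 to 68788327 reads, so a gene with no reads could still be at up to 0.0757 FPM (3 reads, counting error only). Libraries of the same group had a Pearson r of 0.980 to 0.996 across the tested genes. The replicate labels do not say whether cultures were separate, so p-values measure the spread between these libraries, which may be technical. MUNC spliced DM3 replicate 1 stood apart from its group: Myog, a myogenic transcription factor, was at 226, 52.6 and 41.0 FPM in replicates 1, 2 and 3, and Ube2c, a cell cycle gene, at 48.8, 8.17 and 9.31 FPM. Tests that use that group are given with and without it. The limma fit pools the spread of all libraries, so replicate 1 also bears on comparisons of other groups. Leaving it out added calls for Tnni2 and Tnni3 in control DM3 against GM and for Tnnt2 in MUNC genomic against control DM3. In GM it added Tnni1 in both MUNC lines against control, Tnnt1 in MUNC spliced against control and Tnnc1 between the MUNC lines. Every DM3 library carries the tissue label Myotubes. In control DM3, however, the myotube genes Ckm (creatine kinase of muscle) and Mymk (a fusion protein) had at most 3 reads in any library. Myog was at 0.192, 0.434 and 0.405 FPM there. Differentiation is therefore used here as a name for DM3 against GM, which also differ in serum and days. It does not say that control cells became myotubes. All 7 myotube markers averaged at or above 0.5 FPM in DM3 of both MUNC lines, against 2 of 7 in control DM3. Their summed level was 136 to 198 FPM in control DM3, 309 to 940.4 FPM in MUNC spliced DM3 and 1048 to 1212 FPM in MUNC genomic DM3. In GM it was 33.0 to 48.2 FPM in control, 132 to 242 FPM in MUNC spliced cells and 368 to 669.7 FPM in MUNC genomic cells. The sum thus differed between lines in both media without overlap. The count of markers at or above 0.5 FPM ordered the MUNC lines the other way in GM, 6 of 7 in MUNC spliced and 2 of 7 in MUNC genomic cells. Ckm, Mymk and Mymx had at most 3 reads in MUNC genomic GM, so few genes made up its sum. The part of the marker sum in the differences between lines, in GM and in DM3, was not tested. In bulk RNA, more cells of a type and more RNA per cell cannot be told apart.

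**Figure D1:**
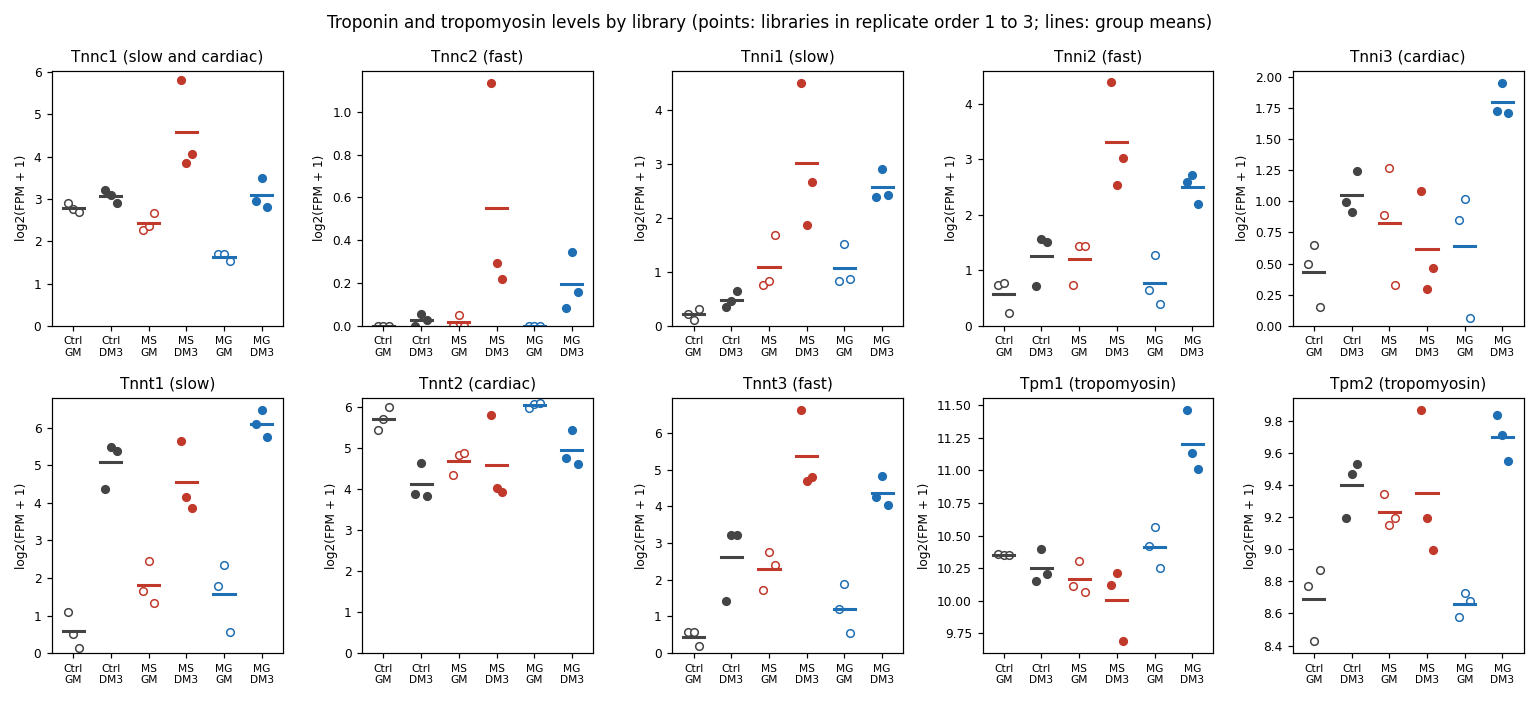
Level of each of the 10 genes in every library, as log2(FPM + 1), with a separate vertical scale per gene (those of Tpm1 and Tpm2 do not start at 0). Open points are GM and filled points DM3 libraries, in replicate order 1 to 3, in grey for control (Ctrl), red for MUNC spliced (MS) and blue for MUNC genomic (MG), and each line is the mean of 3 libraries. Tnnt1 and Tnnt2 move in opposite directions in control cells, and MUNC spliced DM3 replicate 1 is the highest library of its group in all 9 tested genes except Tpm1.

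Troponin T held the largest change on differentiation among the 9 tested genes in all 3 lines. In control cells the slow skeletal gene Tnnt1 (ENSMUSG00000064179, chr7:4504570-4516382, minus strand, mm10 as in GENCODE M21) was at 1.13, 0.425 and 0.0922 FPM in GM and at 19.9, 44.0 and 40.5 FPM in DM3. The groups did not overlap, and the rise was 4.51 (SE 0.49, limma adjusted p = 1.84e-06) on the log2(FPM + 1) scale. The cardiac and embryonic gene Tnnt2 (ENSMUSG00000026414, chr1:135836354-135852260, plus strand) was at 42.0, 51.5 and 62.6 FPM in GM and at 13.8, 23.9 and 13.3 FPM in DM3, a change of -1.59 (SE 0.38, limma adjusted p = 0.002). It therefore fell while Tnnt1 rose, in 3 of 3 DM3 libraries each. The fast skeletal gene Tnnt3 (ENSMUSG00000061723, chr7:142498836-142516009, plus strand) went from 0.495, 0.478 and 0.138 FPM to 1.69, 8.40 and 8.33 FPM, a rise of 2.18 (SE 0.52, limma adjusted p = 0.00191), with DM3 replicate 1 well below the other 2. The authors' deposited table gives log2 changes of 5.96 (adjusted p = 1.06e-09) for Tnnt1, -1.64 (adjusted p = 5.22e-10) for Tnnt2 and 4.02 (adjusted p = 7.66e-06) for Tnnt3 in the same comparison. The pseudocount of 1 FPM used here understates the change of genes near 0, such as Tnnt1 and Tnnt3 in GM.

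The sequences before the starts of Tnnt1 and Tnnt2 are shown because the 2 genes moved in opposite directions. Each run is the 250 bases before the RefSeq start on GRCm38.p6, 5′ to 3′ on the gene's strand, at chr7:4515976-4516225, minus strand for Tnnt1 and chr1:135836084-135836333, plus strand for the first of the 2 Tnnt2 starts. Capitals mark matches to the letters searched on both strands: the E-box forms CAGCTG and CACCTG, the MCAT element CATTCC (bound by TEAD factors), TATAAA, and the MEF2 and CArG elements.
Tnnt1: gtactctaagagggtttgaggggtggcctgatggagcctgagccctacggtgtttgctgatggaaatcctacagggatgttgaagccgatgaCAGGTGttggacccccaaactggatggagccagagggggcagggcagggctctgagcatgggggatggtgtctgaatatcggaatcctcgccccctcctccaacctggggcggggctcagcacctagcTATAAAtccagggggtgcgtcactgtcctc
Tnnt2: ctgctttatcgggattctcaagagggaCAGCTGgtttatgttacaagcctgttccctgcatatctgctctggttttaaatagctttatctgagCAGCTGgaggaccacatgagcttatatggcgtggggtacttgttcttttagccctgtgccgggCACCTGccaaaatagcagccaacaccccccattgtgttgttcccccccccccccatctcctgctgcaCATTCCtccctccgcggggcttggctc
Tnnt1 held 1 match to CACCTG and a TATAAA 30 to 25 bases before its start. The Tnnt2 window shown held 2 matches to CAGCTG, 1 to CACCTG and 1 to CATTCC, the last 27 to 22 bases before the first start. The window of the second Tnnt2 start held none of the motifs searched. Over all 32851 RefSeq promoter windows of this length, 13.001% held CAGCTG, 17.2% CACCTG, 12.6% CATTCC, 12.4% TATAAA, 2.92% the MEF2 and 1.47% the CArG element. These matches are a description of the letters only. Windows were found for 8 of the 10 genes, not for Tnni2 and Tnnt3.

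On differentiation of MUNC spliced cells Tnnt3 was the troponin T gene with the largest rise. Tnnt3 was at 2.32, 5.79 and 4.33 FPM in GM and at 98.4, 25.0 and 27.0 FPM in DM3, a rise of 3.08 (SE 0.52, limma adjusted p = 0.000353). Without DM3 replicate 1 the rise of Tnnt3 was 2.45 (adjusted p = 0.000912). Tnnt1 went from 2.15, 4.51 and 1.53 FPM to 48.9, 16.8 and 13.4 FPM, a rise of 2.73 (SE 0.49, limma adjusted p = 0.000561), or 2.18 (adjusted p = 0.00197) without replicate 1. Tnnt2 was at 19.3, 27.2 and 28.5 FPM in GM and 55.2, 15.1 and 14.1 FPM in DM3. The groups overlapped through replicate 1, the change was -0.10 (SE 0.38, limma adjusted p = 0.86), and without that library it was -0.72 (adjusted p = 0.0404), a fall that passed.

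Tnnt1 was higher in the 3 MUNC genomic DM3 libraries than in the other 15 libraries. It went from 2.48, 4.12 and 0.462 FPM in GM to 67.9, 88.0 and 52.6 FPM in DM3, a rise of 4.54 (SE 0.49, limma adjusted p = 2.95e-06). Its difference from control DM3, 1.03 (SE 0.49, limma adjusted p = 0.109), did not pass, while the authors' deposited table gives 1.02 (adjusted p = 0.000688). Tnnt3 went from 1.29, 2.67 and 0.462 FPM to 18.0, 27.2 and 15.4 FPM, a rise of 3.16 (SE 0.52, limma adjusted p = 0.000113). Tnnt2 went from 62.3, 66.1 and 67.8 FPM to 26.2, 42.3 and 23.5 FPM with no overlap between the groups, a change of -1.11 (SE 0.38, limma adjusted p = 0.0223). That call was lost without GM replicate 3 (adjusted p = 0.0572), DM3 replicate 1 (0.0666) or DM3 replicate 3 (0.0865).

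Which troponin T gene dominated was described per exonic length, since raw levels of genes of different length cannot be compared. In control GM, Tnnt2 made up 92.8% ± 5.81 of the troponin T signal per length (SD, n = 3). In control DM3, Tnnt1 made up 73.0% ± 2.82, Tnnt3 16.2% ± 6.28 and Tnnt2 10.9% ± 4.12 (SD, n = 3). MUNC genomic cells had a like order, with Tnnt2 at 81.9% ± 12.1 in GM and Tnnt1 at 65.5% ± 1.95 and Tnnt3 at 26.3% ± 1.29 in DM3 (SD, n = 3). In MUNC spliced cells Tnnt2 held 46.8% ± 7.58 and Tnnt3 already 36.0% ± 5.44 in GM, and in DM3 Tnnt3 led with 66.2% ± 3.42 over Tnnt1 with 26.2% ± 3.31 (SD, n = 3). The summed troponin T signal of MUNC spliced DM3 ranged from 25.0 to 91.5 FPM per kb, highest in replicate 1. The Tnnt1 share in the same libraries ranged only from 24.3% to 30.1%, so replicate 1 stood apart in the amount of troponin T and not in its composition. Without replicate 1 the shares of MUNC spliced DM3 were 65.3% for Tnnt3 and 27.2% for Tnnt1. With the length of the longest transcript in place of all exons, the Tnnt3 share of MUNC spliced DM3 was 57.4% and that of Tnnt1 32.2%, and in control DM3 the order of Tnnt2 (12.5%) and Tnnt3 (11.9%) was turned.

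**Figure D2:**
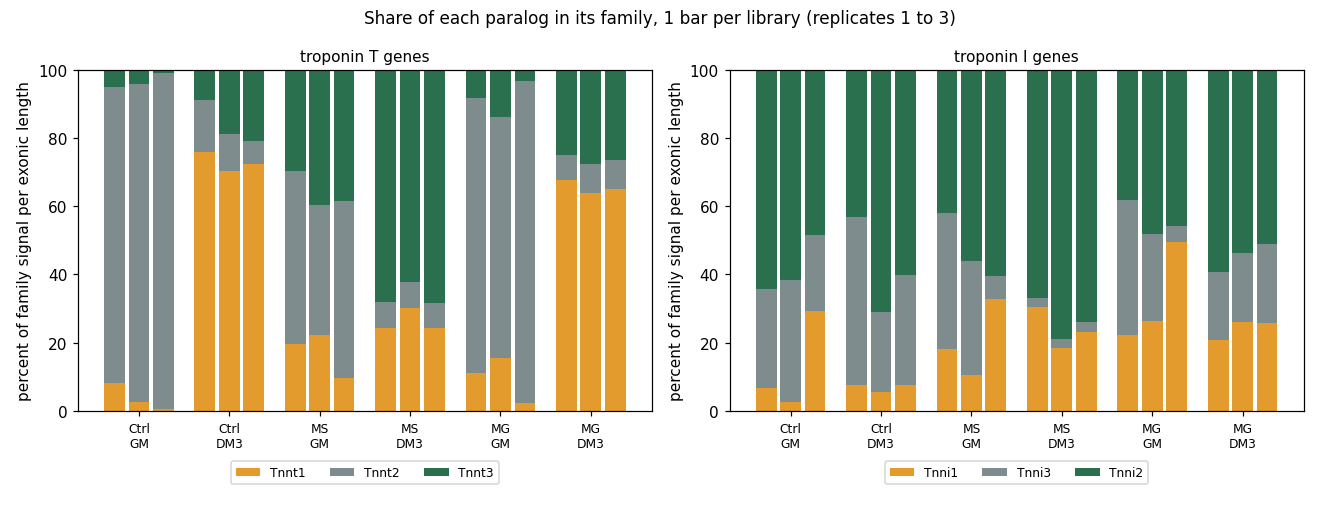
Share of each paralog in the summed signal per exonic length of its family, in percent, with 1 stacked bar per library (replicates 1 to 3 of control (Ctrl), MUNC spliced (MS) and MUNC genomic (MG) cells in GM and DM3). In DM3, Tnnt1 holds 70.4% to 76.0% of the troponin T signal in control and 63.8% to 67.7% in MUNC genomic cells but 24.3% to 30.1% in MUNC spliced cells, where Tnnt3 holds 62.2% to 68.3%.

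These differences in composition were tested on the log2 ratio of 2 paralogs, with an exact two-sided permutation test stratified by line or medium. There were 20 tests over 5 pairs, with Benjamini-Hochberg adjustment over all 20. The smallest exact permutation p is 0.00025 for DM3 against GM (8000 arrangements) and 0.005 for a pair of lines (400 arrangements). The Tnnt1 to Tnnt2 ratio rose on differentiation by 4.86 (exact permutation p = 0.00025, adjusted p = 0.0025) over the 3 lines, by 6.10 in control, 5.65 in MUNC genomic and 2.83 in MUNC spliced cells. The Tnnt2 to Tnnt3 ratio changed by -3.74 (exact permutation p = 0.00025, adjusted p = 0.0025). The Tnnt1 to Tnnt3 ratio, slow over fast, was lower in MUNC spliced cells, with a difference of -1.95 (exact permutation p = 0.005, adjusted p = 0.0111) from control and of -1.71 (exact permutation p = 0.005, adjusted p = 0.0111) from MUNC genomic cells. In DM3 alone these differences were -3.29 and -2.58, and in GM -0.62 and -0.85. Between MUNC genomic and control cells the same ratio differed by -0.24 (exact permutation p = 0.385, adjusted p = 0.405), which did not pass. On differentiation it rose by 1.12 (exact permutation p = 0.00675, adjusted p = 0.0135) over all lines, made up of 2.32 in control, 1.38 in MUNC genomic and -0.35 in MUNC spliced cells. The Tnnt2 to Tnnt3 ratio was lower in MUNC spliced cells than in control (-2.59 (exact permutation p = 0.005, adjusted p = 0.0111)) and than in MUNC genomic cells (-1.92 (exact permutation p = 0.005, adjusted p = 0.0111)). Without MUNC spliced DM3 replicate 1 the Tnnt1 to Tnnt3 ratio differed by -1.91 (exact permutation p = 0.005, adjusted p = 0.0125) from control and by -1.67 (exact permutation p = 0.005, adjusted p = 0.0125) from MUNC genomic cells, and its change on differentiation was 1.15 (exact permutation p = 0.007, adjusted p = 0.0145). The other ratios of this paragraph kept their direction and their side of the threshold without it. With replicate numbers as a block, the 4 differences between MUNC spliced and another line in this paragraph had an exact permutation p = 0.0312, the smallest that 64 sign arrangements allow, and adjusted p = 0.0521. The blocked Tnnt1 to Tnnt3 ratio on differentiation also had adjusted p = 0.0521 (exact permutation p = 0.0273).

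Troponin I, the inhibitory subunit, was low in control cells in both media. The slow gene Tnni1 (ENSMUSG00000026418, chr1:135779434-135810989, plus strand) was at 0.171, 0.0708 and 0.246 FPM in control GM and at 0.269, 0.375 and 0.571 FPM in control DM3, and the change of 0.27 (SE 0.45, limma adjusted p = 0.631) did not pass. The MUNC spliced line went from 0.681, 0.770 and 2.22 FPM to 21.7, 2.67 and 5.37 FPM, a rise of 1.93 (SE 0.45, limma adjusted p = 0.00347), or 1.19 (adjusted p = 0.00456) without DM3 replicate 1. That rise did not pass when only those 6 libraries were fitted (adjusted p = 0.0597). The MUNC genomic line went from 0.787, 1.86 and 0.819 FPM to 4.23, 6.48 and 4.37 FPM, a rise of 1.50 (SE 0.45, limma adjusted p = 0.0103). Both MUNC lines were above control in DM3 with no overlap, by 2.53 (SE 0.45, limma adjusted p = 0.000268) in MUNC spliced and 2.09 (SE 0.45, limma adjusted p = 0.00139) in MUNC genomic cells. In GM, too, every library of both MUNC lines was above every control library for Tnni1. The differences of 0.87 (adjusted p = 0.141) and 0.86 (adjusted p = 0.175) did not pass limma. Both passed with a pseudocount of 0.1, with only the groups compared, without MUNC spliced DM3 replicate 1, and with edgeR or DESeq2. The authors' deposited tables give 2.91 (adjusted p = 5.73e-05) and 2.86 (adjusted p = 1.39e-05) for them.

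The fast gene Tnni2 (ENSMUSG00000031097, chr7:142441808-142444410, plus strand) was at 0.666, 0.708 and 0.169 FPM in control GM and at 0.634, 1.95 and 1.84 FPM in control DM3. Its change of 0.68 (SE 0.38, limma adjusted p = 0.137) did not pass, while the authors' deposited table gives 1.50 (adjusted p = 0.0165). Tnni2 rose in MUNC spliced cells from 0.656, 1.70 and 1.70 FPM to 19.8, 4.76 and 7.12 FPM, by 2.11 (SE 0.38, limma adjusted p = 0.000565), or 1.58 (adjusted p = 0.00105) without DM3 replicate 1. It rose in MUNC genomic cells from 0.558, 1.42 and 0.315 FPM to 5.03, 5.53 and 3.59 FPM, by 1.73 (SE 0.38, limma adjusted p = 0.00131). In DM3 it was above control by 2.05 (SE 0.38, limma adjusted p = 0.000419) in MUNC spliced cells. The difference of 1.24 (SE 0.38, limma adjusted p = 0.0161) in MUNC genomic cells was lost without control DM3 replicate 1 (adjusted p = 0.0785) or MUNC genomic DM3 replicate 2 (0.0578). The Tnni1 to Tnni2 ratio was higher in MUNC genomic than in control cells over both media, by 0.76 (exact permutation p = 0.005, adjusted p = 0.0111) in the exact permutation test, and with the replicate block the adjusted p was 0.0521. Between MUNC spliced and control cells it differed by 0.37 (exact permutation p = 0.135, adjusted p = 0.169), which did not pass with or without MUNC spliced DM3 replicate 1 (then 0.26 (exact permutation p = 0.24, adjusted p = 0.3)).

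The cardiac gene Tnni3 (ENSMUSG00000035458, chr7:4518305-4524229, minus strand) rose with both skeletal paralogs in MUNC genomic cells but not in MUNC spliced cells. It was at 0.410, 0.566 and 0.108 FPM in control GM and at 0.999, 0.888 and 1.36 FPM in control DM3, a change of 0.62 (SE 0.26, limma adjusted p = 0.0525) that passed with the replicate block (adjusted p = 0.0302). The authors' deposited table gives 1.57 (adjusted p = 0.00992) for this change. In MUNC spliced cells it was at 0.858, 1.41 and 0.252 FPM and 1.12, 0.227 and 0.380 FPM, with overlap and a change of -0.22 (SE 0.26, limma adjusted p = 0.552), or -0.45 (adjusted p = 0.202) without DM3 replicate 1. MUNC genomic cells rose from 0.802, 1.03 and 0.0420 FPM to 2.31, 2.88 and 2.26 FPM, by 1.15 (SE 0.26, limma adjusted p = 0.00169). In DM3 Tnni3 was lower in MUNC spliced cells than in MUNC genomic cells, with a difference of -1.18 (SE 0.26, limma adjusted p = 0.00165), or -1.42 (adjusted p = 0.00058) without MUNC spliced DM3 replicate 1, and its share of troponin I per length was 2.78% ± 0.0740 against 21.1% ± 1.89 (SD, n = 3). Its excess over control in MUNC genomic DM3, 0.74 (SE 0.26, limma adjusted p = 0.0328), was lost with 10 of 28 alternatives. Among them were edgeR (adjusted p = 0.204) and leaving out control DM3 replicate 1 or 2 or any MUNC genomic DM3 replicate (0.0563 to 0.103). For this excess the authors' deposited table gives 1.21 (adjusted p = 8.15e-05). Tnni3 shares 86 exonic bases (4.17% of its exonic length) with Dnaaf3, a dynein assembly gene on the same strand. Dnaaf3 was at 2.27, 2.32 and 1.04 FPM in control GM, at 5.65, 3.93 and 5.51 FPM in control DM3, at 7.60, 6.94 and 6.09 FPM in MUNC genomic DM3 and at 2.05, 1.57 and 1.99 FPM in MUNC spliced DM3. Its part in the Tnni3 values was not tested. Of 7 cardiac markers, 2 averaged 0.5 FPM or more in control DM3 and in MUNC genomic DM3, and Myl7 had at most 3 reads in every library. The 7 summed to 24.0 to 35.1 FPM in control GM and 22.5 to 27.7 FPM in control DM3. They summed to 32.9 to 38.1 FPM in MUNC genomic GM and 33.1 to 39.6 FPM in MUNC genomic DM3, ranges that overlap, and to 17.9 to 29.3 FPM and 19.8 to 20.0 FPM in MUNC spliced GM and DM3. The part of these markers in the Tnni3 values was not tested.

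Troponin C, the calcium sensor, was represented almost wholly by Tnnc1 (ENSMUSG00000091898, chr14:31208312-31211729, plus strand), the form of slow and cardiac muscle, which made up at least 96.7% of its signal per length in every library. In control cells Tnnc1 was at 6.47, 5.79 and 5.47 FPM in GM and 8.26, 7.54 and 6.50 FPM in DM3, a change of 0.28 (SE 0.35, limma adjusted p = 0.507) that did not pass. MUNC spliced cells went from 3.81, 4.14 and 5.30 FPM to 55.3, 13.5 and 15.6 FPM, a rise of 2.15 (SE 0.35, limma adjusted p = 0.000257), or 1.53 (adjusted p = 1.38e-05) without DM3 replicate 1. MUNC genomic cells went from 2.22, 2.23 and 1.89 FPM to 6.69, 10.3 and 6.05 FPM, a rise of 1.45 (SE 0.35, limma adjusted p = 0.00249) from the lowest GM level of the 3 lines. In GM Tnnc1 was below control in MUNC genomic cells with no overlap, a difference of -1.15 (SE 0.35, limma adjusted p = 0.0218). That call was lost without control GM replicate 1 (adjusted p = 0.0665) or without MUNC genomic GM replicate 1, 2 or 3 (0.0525, 0.0504 and 0.0533). In DM3 Tnnc1 was above control in MUNC spliced cells by 1.51 (SE 0.35, limma adjusted p = 0.00237), or 0.89 (adjusted p = 0.00157) without DM3 replicate 1. MUNC genomic and control DM3 overlapped and differed by 0.02 (SE 0.35, limma adjusted p = 0.976).

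The windows before Tnnc1 (chr14:31208062-31208311, plus strand) and before the first Tnni1 start (chr1:135799171-135799420, plus strand) are shown because both genes rose in DM3 of the MUNC lines while their changes in control did not pass, with capitals as above. Tested directly against the control change, as given below, only the rise of Tnnc1 in MUNC spliced cells was called.
Tnnc1: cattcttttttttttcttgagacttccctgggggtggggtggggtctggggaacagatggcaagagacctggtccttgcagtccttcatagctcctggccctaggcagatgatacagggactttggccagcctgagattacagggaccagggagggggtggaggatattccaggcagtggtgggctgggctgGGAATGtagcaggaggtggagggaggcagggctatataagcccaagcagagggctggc
Tnni1: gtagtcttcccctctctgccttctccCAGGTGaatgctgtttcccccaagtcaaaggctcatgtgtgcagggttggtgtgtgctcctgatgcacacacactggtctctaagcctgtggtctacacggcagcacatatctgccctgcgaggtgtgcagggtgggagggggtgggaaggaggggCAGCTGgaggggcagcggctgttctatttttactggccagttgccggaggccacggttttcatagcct
Tnnc1 held 1 match to CATTCC, as its reverse complement, 58 to 53 bases before the start, and none to either E-box form. The Tnni1 window shown held 1 match each to CAGCTG and CACCTG, 68 to 63 and 224 to 219 bases before the start. The window of the second Tnni1 start held CAGCTG, 158 to 153 bases before that start, and no CACCTG. The 2 windows shown share none of the motifs searched.

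The fast troponin C gene Tnnc2 (ENSMUSG00000017300, chr2:164777161-164779967, minus strand) did not reach 0.5 FPM in 3 libraries and was not tested. It had 0, 0 and 0 reads in control GM, 0, 2 and 1 in control DM3, 0, 2 and 0 in MUNC spliced GM, 63, 13 and 9 in MUNC spliced DM3, 0, 0 and 0 in MUNC genomic GM and 3, 18 and 6 in MUNC genomic DM3. The highest, MUNC spliced DM3 replicate 1, was at 1.20 FPM. Ube2c overlaps 592 bases (74.0%) of its exons on the other strand, and the counting's strand setting is not given in the sources used here. Ube2c was at 194, 172 and 178 FPM in control GM, where Tnnc2 had no reads. What the overlap did to the Tnnc2 counts was not tested.

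The tropomyosins were far more abundant than the troponins. Per exonic length, the 4 tropomyosin genes Tpm1 to Tpm4 summed to 957 ± 51.5 FPM per kb in control GM, against 7.19 ± 0.978 for troponin T, 5.68 ± 0.491 for troponin C and 0.564 ± 0.289 for troponin I (SD, n = 3). Tpm1 (ENSMUSG00000032366, chr9:67022590-67049406, minus strand) was at 1314, 1303 and 1305 FPM in control GM and at 1136, 1349.8 and 1177 FPM in control DM3, with overlap and a change of -0.10 (SE 0.16, limma adjusted p = 0.597). The MUNC spliced line was at 1108, 1265 and 1074 FPM in GM and 1111, 1183 and 823 FPM in DM3, also with overlap (-0.16 (SE 0.16, limma adjusted p = 0.448), or -0.22 (adjusted p = 0.353) without DM3 replicate 1). The MUNC genomic line rose from 1368, 1512 and 1218 FPM to 2828, 2251 and 2065 FPM, by 0.79 (SE 0.16, limma adjusted p = 0.000496). All 3 MUNC genomic DM3 libraries were above the other 15 libraries. In DM3 the excess over control was 0.95 (SE 0.16, limma adjusted p = 0.000122), and MUNC spliced cells were below MUNC genomic cells, with a difference of -1.20 (SE 0.16, limma adjusted p = 9.79e-06), or -1.26 (adjusted p = 3.16e-05) without MUNC spliced DM3 replicate 1.

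Tpm2 (ENSMUSG00000028464, chr4:43514711-43523765, minus strand) rose on differentiation in control and MUNC genomic cells. It went from 435, 343 and 468 FPM to 585, 708 and 738 FPM in control, by 0.71 (SE 0.18, limma adjusted p = 0.00323), and from 381, 423 and 408 FPM to 910.4, 838 and 746 FPM in MUNC genomic cells, by 1.04 (SE 0.18, limma adjusted p = 0.000195). In MUNC spliced cells it was at 648, 566 and 586 FPM in GM and 933, 584 and 509 FPM in DM3, where replicate 1 was high and the others overlapped GM (0.12 (SE 0.18, limma adjusted p = 0.629), or -0.14 (adjusted p = 0.497) without it). In GM the MUNC spliced libraries were all above control, by 0.54 (SE 0.18, limma adjusted p = 0.0295), and above MUNC genomic cells by 0.57 (SE 0.18, limma adjusted p = 0.0223). The first of these calls was lost without control GM replicate 2 (adjusted p = 0.123) or MUNC spliced GM replicate 1, 2 or 3 (0.0908, 0.0512 and 0.0514). The second was lost without MUNC spliced GM replicate 1 (0.0745) or MUNC genomic GM replicate 1 (0.0721). The Tpm1 to Tpm2 ratio fell on differentiation, with a change of -0.44 (exact permutation p = 0.00325, adjusted p = 0.0111) over the 3 lines. It was lower in MUNC spliced cells than in MUNC genomic cells, with a difference of -0.84 (exact permutation p = 0.005, adjusted p = 0.0111), and with the replicate block that adjusted p was 0.0521. Without MUNC spliced DM3 replicate 1 these values were -0.38 (exact permutation p = 0.00725, adjusted p = 0.0145) and -0.73 (exact permutation p = 0.005, adjusted p = 0.0125).

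Tpm3 and Tpm4, the other tropomyosin genes, are given for the balance within the family. Tpm4, a cytoskeletal tropomyosin, was at 1200.4, 1158 and 1271 FPM in control GM and at 839, 889.7 and 764 FPM in control DM3, a fall with a log2 change of -0.54 (SE 0.14, limma adjusted p = 0.00371). Tpm3 fell as well, from 387, 365 and 414 FPM to 264, 269 and 226 FPM, with a change of -0.62 (SE 0.11, limma adjusted p = 0.00014). Per exonic length, Tpm4 made up 57.4% ± 0.702 of tropomyosin in control GM and 44.9% ± 2.64 in control DM3, while Tpm2 went from 14.9% ± 1.59 to 27.7% ± 3.00 (SD, n = 3). In MUNC genomic DM3, Tpm1 held the largest share, 36.0% ± 0.826 (SD, n = 3). The rank of Tpm1 in the other groups depended on the length used. In control DM3 it was at 22.4% per exonic length, below Tpm2, but at 34.3% with the longest transcript, above Tpm2 at 25.3%. Smooth muscle markers summed to 2335 to 3709 FPM in MUNC genomic DM3 and 1989 to 3289.9 FPM in MUNC spliced DM3, against 1291 to 1437 FPM in control DM3. Most of that sum was Acta2, at 2156 to 3443 FPM in MUNC genomic DM3, and Myh11 had at most 3 reads in MUNC genomic GM. Fibroblast markers summed to 1437 to 1750.1 FPM in MUNC genomic DM3, 3879 to 4374 FPM in MUNC spliced DM3 and 1943 to 2449 FPM in control DM3. The part of either list in the tropomyosin values was not tested.

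**Figure D3:**
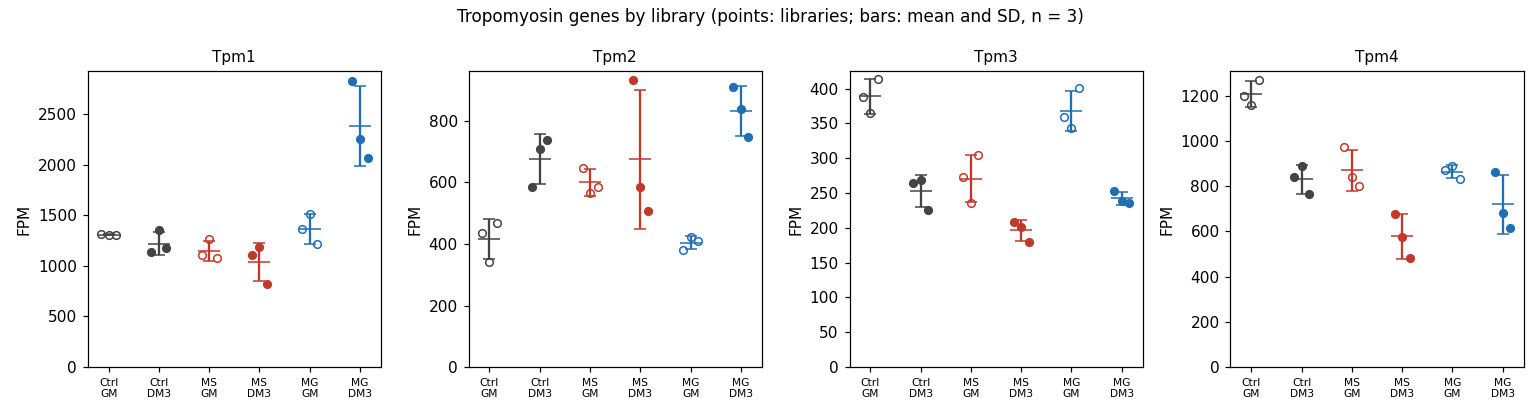
FPM of Tpm1 to Tpm4 in every library, on linear axes from 0 (points are libraries, bars the mean and SD of 3, grey control (Ctrl), red MUNC spliced (MS), blue MUNC genomic (MG), open GM, filled DM3). Tpm1 is higher in the 3 MUNC genomic DM3 libraries than anywhere else, while Tpm3 and Tpm4 are lower in control DM3 than in control GM.

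Counted over the set, 9 of the 10 genes passed the filter on low values (at least 0.5 FPM in at least 3 libraries). In control DM3 against GM, limma called 4 of the 9 at an adjusted p under 0.05, 3 higher and 1 lower, where 58.2% of the 13869 tested genes were called. Groups did not overlap for 7 of the 9, against 62.4% of all tested genes. Their median log2 change was 0.62, against 0.02 over all tested genes. Differentiation of MUNC spliced cells called 5, all higher, where 35.6% of all genes were called and 17.2% were called higher. The median was 1.93 against -0.01, and groups did not overlap for 5 members, against 44.6% of all genes. Without DM3 replicate 1 it called 6, 5 higher and 1 lower, with a median of 1.19 (the share of all genes is not given for that fit). For MUNC genomic cells it called 9 of 9, 8 higher and 1 lower, against 51.4% of all genes, with a median of 1.45 against 0.02. Groups did not overlap for all 9, against 62.8% of all genes. Tnnt1 and Tnnt3 were higher in DM3 in each of the 3 lines.

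Between lines in GM, few members passed. MUNC spliced against control called 3 (Tnnt3 and Tpm2 higher, Tnnt2 lower), where 35.5% of all genes were called, and groups did not overlap for 7, against 43.6%. Tnnt3 was above control in GM by 1.86 (SE 0.52, limma adjusted p = 0.0111), which was lost without MUNC spliced GM replicate 2 (adjusted p = 0.0512). Tnnt2 was below it, with a difference of -1.03 (SE 0.38, limma adjusted p = 0.0457), a call lost with 16 of 28 alternatives, including each fit that left out a GM library (adjusted p of 0.0512 to 0.143). With libraries scaled to equal sums or by quantiles, 2 members were higher and 0 lower. Tnnt1 differed by 1.24 (SE 0.49, limma adjusted p = 0.0596) and passed with the replicate block (adjusted p = 0.0294), and the authors' deposited table gives 2.32 (adjusted p = 0.00196). MUNC genomic against control called only Tnnc1, lower, where 26.8% of all genes were called and 14.5% were called lower. Groups did not overlap for 2 members there (37.9% of all genes). MUNC spliced against MUNC genomic in GM called 2, against 35.8%, and did not overlap for 3, against 45.7%: called were Tpm2 higher and Tnnt2 lower in MUNC spliced cells, the latter with a difference of -1.37 (SE 0.38, limma adjusted p = 0.0103).

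In DM3, MUNC spliced against control called 4 members, all higher (Tnnc1, Tnni1, Tnni2 and Tnnt3), where 43.3% of all genes were called and 22.3% were called higher. Groups did not overlap for the same number, 4, against 53.0% of all genes. Without MUNC spliced DM3 replicate 1 the differences were 0.89 for Tnnc1, 1.79 for Tnni1, 1.51 for Tnni2 and 2.13 for Tnnt3, all still called. Tnnt3 was above control by 2.75 (SE 0.52, limma adjusted p = 0.00048) with every library, and Tnnt1 differed by -0.53 (SE 0.49, limma adjusted p = 0.404), or -1.08 (adjusted p = 0.0819) without that replicate, which did not pass. MUNC genomic against control called 5, all higher (Tnni1, Tnni2, Tnni3, Tnnt3 and Tpm1), where 40.3% of all genes were called and 19.3% were called higher. Groups did not overlap for 7 members, against 56.9%. Its Tnnt3 difference of 1.74 (SE 0.52, limma adjusted p = 0.0137) was lost without control DM3 replicate 1 (adjusted p = 0.0828) or MUNC genomic DM3 replicate 2 (0.0601). For the 9 tested members the authors' deposited tables hold more calls than limma in 4 of their 5 comparisons: 6 against 4 in control DM3 against GM, 6 against 3 and 3 against 1 for MUNC spliced and MUNC genomic against control in GM, and 8 against 5 for MUNC genomic against control in DM3. In MUNC spliced against control in DM3 both hold 4, and every call made here in these 5 comparisons is also in the authors' deposited tables. The 2 lines share the control libraries, so these lists are not independent of each other.

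Set directly against each other in DM3, the MUNC lines differed in 4 members, where 44.2% of all genes were called, and groups did not overlap for 4, against 57.2%. Tnnc1 was higher in MUNC spliced cells by 1.49 (SE 0.35, limma adjusted p = 0.00244), or by 0.87 (adjusted p = 0.00159) without MUNC spliced DM3 replicate 1. Tnni3, Tpm1 and Tnnt1 were lower in MUNC spliced cells, Tnnt1 with a difference of -1.56 (SE 0.49, limma adjusted p = 0.0169), or -2.11 (adjusted p = 0.00206) without that replicate. The Tnnt1 call was lost without MUNC spliced DM3 replicate 2 (adjusted p = 0.0649) or replicate 3 (0.0823), without MUNC genomic DM3 replicate 2 (0.0654), and with edgeR (0.0887) or DESeq2 (0.165). Without MUNC spliced DM3 replicate 1, Tnnt2 and Tpm2 were also lower in MUNC spliced cells, with differences of -0.98 (adjusted p = 0.00736) and -0.60 (adjusted p = 0.00393). Tnnt3 overlapped between the MUNC lines and did not pass. Its difference was 1.01 (SE 0.52, limma adjusted p = 0.125), or 0.39 without that replicate.

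**Figure D4:**
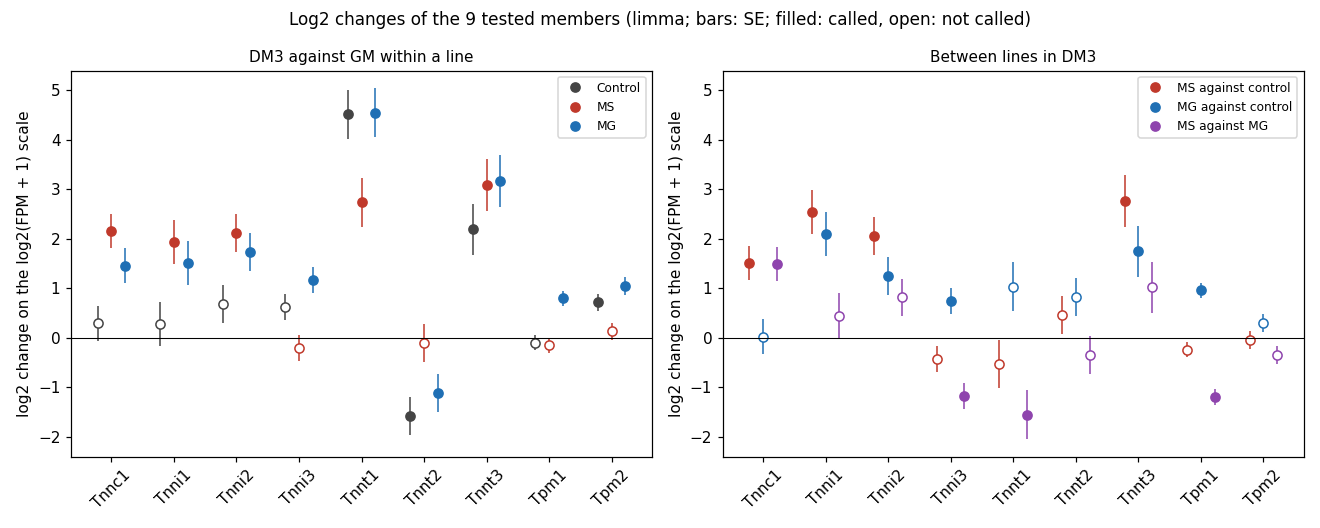
Log2 changes of the 9 tested members on the log2(FPM + 1) scale, with bars of 1 SE from limma, for DM3 against GM within each line and for the lines against each other. Filled points passed an adjusted p under 0.05 and open points did not. Tnnt1 and Tnnt3 are filled and above 0 in all 3 lines on differentiation, and Tpm1 is filled in MUNC genomic cells only (the control and MUNC spliced changes were -0.10 and -0.16).

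The interaction term compares the DM3 against GM change of a MUNC line with that of control. For MUNC spliced it was called for 1 member, against 14.4% of all genes: Tnnc1 rose more than in control, by 1.86 (SE 0.49, limma adjusted p = 0.0211), which was 1.25 (adjusted p = 0.00704) without MUNC spliced DM3 replicate 1 and was lost without control DM3 replicate 3 (adjusted p = 0.0566). The interaction of Tnnt1 was -1.78 (SE 0.70, limma adjusted p = 0.0956), which passed with the replicate block (adjusted p = 0.0437) and without MUNC spliced DM3 replicate 1 (-2.32 (adjusted p = 0.0302)). The Tpm2 interaction of -0.59 (SE 0.26, limma adjusted p = 0.133) also passed without that replicate (-0.84 (adjusted p = 0.0151)). That of Tnni1 was 1.66 (SE 0.63, limma adjusted p = 0.0874), or 0.92 without that replicate. It passed only without MUNC spliced DM3 replicate 2 (adjusted p = 0.0165). For MUNC genomic it was also called for 1 member, against 8.81% of all genes: the change of Tpm1 exceeded that of control by 0.90 (SE 0.22, limma adjusted p = 0.017). The interaction of Tnnt1 in MUNC genomic cells was 0.03 (SE 0.70, limma adjusted p = 0.986). Tnnc1 and Tnni1 were not called in that interaction.

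Of 27 other thin filament genes, 23 were tested (not Actn2, Kbtbd13, Nebl and Tmod2). In control DM3 against GM, 5 rose and 4 fell, which is 39.1% against 58.2% of all genes. Klhl41, a ubiquitin ligase adaptor, rose by 2.26 (adjusted p = 0.000278) and Actn3, the fast alpha-actinin, by 1.27 (adjusted p = 0.0073). Acta1, skeletal alpha-actin, changed by -1.93 (adjusted p = 0.0102), a call lost without control GM replicate 3 (adjusted p = 0.0511), and Tpm3 fell as given above. Among MUNC spliced libraries 10 rose and 2 fell (52.2% against 35.6%), or 6 rose and 3 fell without DM3 replicate 1. Acta1 rose by 3.23 (adjusted p = 0.000615) and Actc1, cardiac alpha-actin, by 2.82 (adjusted p = 5.65e-05), or by 2.47 (adjusted p = 0.00163) and 2.15 (adjusted p = 1.20e-06) without that replicate, while Tpm4 and Tpm3 fell. Reads of Acta1 and Actc1 could be shared between these near-identical genes. For MUNC genomic cells 8 rose and 2 fell (43.5% against 51.4%). Lmod1, a leiomodin that nucleates actin and is known from smooth muscle, rose by 2.88 (adjusted p = 1.65e-06) and Klhl40, which stabilises thin filament proteins, by 2.84 (adjusted p = 9.38e-07). The capping protein gene Capza1 changed by -0.31 (adjusted p = 0.00636).

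Against control in DM3, 12 of these genes were higher and 4 lower in MUNC spliced cells, or 6 higher and 4 lower without MUNC spliced DM3 replicate 1. With all libraries that is 69.6% of the tested genes, against 43.3% of all genes, and 22.3% of all genes were higher. They were led by Acta1 (4.06 (adjusted p = 4.30e-05)) and Actc1 (3.85 (adjusted p = 7.02e-07)), which were at 3.30 (adjusted p = 0.000134) and 3.18 (adjusted p = 1.58e-08) without that replicate. The lowest were Cfl2, a muscle cofilin, at -0.88 (adjusted p = 0.00238) and Tpm4 at -0.53 (adjusted p = 0.00621), or -1.09 (adjusted p = 0.000489) and -0.66 (adjusted p = 0.00234) without it. In MUNC genomic cells 10 were higher and 2 lower (52.2% called, against 40.3% of all genes, with 19.3% of all genes higher), led by Lmod1 (3.18 (adjusted p = 2.01e-07)) and Acta1 (2.06 (adjusted p = 0.0104)), with Klhl41 at -1.22 (adjusted p = 0.0309) and Cfl2 at -0.68 (adjusted p = 0.0139) lower. The Klhl41 call was lost without control DM3 replicate 2 or 3 or MUNC genomic DM3 replicate 1 or 3 (adjusted p = 0.124, 0.124, 0.0754 and 0.0921), and that of Cfl2 without control DM3 replicate 2 (0.0686) or MUNC genomic DM3 replicate 3 (0.0599). Between the MUNC lines in DM3, Neb, the nebulin gene that spans the thin filament, was higher in MUNC spliced cells by 2.74 (adjusted p = 5.65e-05) and Actc1 by 2.40 (adjusted p = 7.48e-05), or by 2.13 (adjusted p = 8.33e-05) and 1.74 (adjusted p = 7.54e-06) without MUNC spliced DM3 replicate 1. Lmod1 and Klhl40 were lower in MUNC spliced cells, at -3.21 (adjusted p = 1.59e-07) and -1.09 (adjusted p = 0.00311), or -3.54 (adjusted p = 3.81e-08) and -1.46 (adjusted p = 5.73e-05) without it, and the Klhl40 call was lost with edgeR (adjusted p = 0.0582). In GM, 5 were higher and 4 lower in MUNC spliced against control (39.1% against 35.5% of all genes), and 2 higher (Nrap, 1.47 (adjusted p = 5.81e-06), and Fhod3, 1.26 (adjusted p = 5.89e-06)) and 2 lower in MUNC genomic against control (17.4% against 26.8%).

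Genes of the fast and slow programmes were read as levels beside the troponins. Mylpf, the fast regulatory light chain, was at 1.86, 4.66 and 3.54 FPM in control DM3, at 159.8, 30.0 and 35.1 FPM in MUNC spliced DM3 and at 15.3, 32.2 and 15.4 FPM in MUNC genomic DM3. Atp2a1, the fast calcium pump, was at 2.84, 7.20 and 9.23 FPM, 116, 25.3 and 36.8 FPM and 5.88, 10.05 and 7.08 FPM in the same groups. For both genes all MUNC spliced DM3 libraries were above all control DM3 libraries. The slow genes Myl2 and Myl3 had at most 3 reads in every library, while Tnnt1, also a slow gene, was high in DM3 of all 3 lines. Casq2, calsequestrin of slow and cardiac muscle, was at 16.6, 4.20 and 4.99 FPM in MUNC spliced DM3 against 0.903, 0.296 and 0.405 FPM in control DM3. Mybpc1, slow myosin binding protein C, was at 0.892, 0.261 and 1.07 FPM in MUNC spliced DM3 and at 0 in MUNC genomic DM3.

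The regulator Myod1, a basic helix-loop-helix factor that binds E-boxes, was at 0.0768, 0 and 0.221 FPM in control DM3. It was at 53.3, 16.4 and 16.0 FPM in MUNC spliced and 18.1, 22.5 and 14.5 FPM in MUNC genomic DM3. In control DM3, Tnnt1 was at 19.9 to 44.0 FPM. Myf5, a related factor, was at 95.0, 109.9 and 105 FPM in control DM3 and at 34.4, 33.8 and 20.0 FPM in MUNC genomic DM3. Mef2c stayed at or below 0.152 FPM in every library. Tead4, which binds MCAT elements, was at 10.8, 14.1 and 20.1 FPM in control GM and at 7.16, 7.36 and 6.02 FPM in control DM3. The part of these factors in the troponin levels was not tested.

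Among the 5 tested members whose group means spanned at least 2 on the log2(FPM + 1) scale, the 3 most alike genes outside the set are given for Tnnt3, Tnni2, Tnni1 and Tnnt1, by the mean absolute difference of centred levels over 18 libraries. For Tnnt3 they were Mylpf (0.42), Ush1g (0.50) and Hfe2 (0.53). Tnni2 was nearest to Myom1 (0.29), an M-band protein gene, then Gm7325 (0.32), which the gene name table calls Mymx, and Smyd1 (0.34). Tnni1 was nearest to the light chain gene Myl4 (0.37), then Myom1 (0.40) and Myl1 (0.40). Tnnt1 had more distant neighbours, Adamts4 (0.50), Bmf (0.63) and Ralgds (0.63), and none of the 3 is a sarcomere gene. These distances describe the libraries and carry no test.

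Troponin I and T genes lie in pairs in the genome, and members of a pair did not always move alike. Tnnt1 and Tnni3 are 1922 bases apart on chromosome 7 with no gene between them. Both rose in MUNC genomic DM3, but in MUNC spliced DM3 Tnnt1 rose while Tnni3 changed by -0.22 and did not pass. Tnni1 and Tnnt2 are 25364 bases apart on chromosome 1 with Lad1 between them, and in MUNC genomic cells Tnni1 rose by 1.50 while Tnnt2 fell by 1.11. Tnni2 and Tnnt3, both fast genes, are 54425 bases apart on chromosome 7 with Lsp1 between them. They rose together in both MUNC lines, and in control Tnnt3 rose while the Tnni2 change did not pass.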

How the data were processed

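RNA-seq of polyadenylated RNA from 18 libraries was processed by the authors with STAR, HTSeq and DESeq2 on mm10, per the submitters' processing notes. The versions, the annotation and the strand setting are not given in the sources used here. The deposited expression table holds normalized signal (FPM) for 35275 genes. Although a label calls it FPKM, dividing each library's values by 1 common step returned whole reads for 100% of values (to within 0.0354 of a read, tolerance 0.05), so the values are counts divided by a size factor. Further deposited tables hold comparisons made by the authors, per the file headers with log2 fold changes and standard errors, p-values and adjusted p-values, and scores (mean and statistic, not used here). Groups were taken from sample titles. In 9 samples another label (myoblasts or myotubes) did not match the title, and titles were followed.

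Differences were tested with limma 3.58.1 (R 4.3.3; lmFit, contrasts.fit, eBayes with trend) on log2(FPM + 1), two-sided, in 1 fit of all 18 libraries over the 13869 genes that reached 0.5 FPM in 3 or more libraries. Benjamini-Hochberg adjustment ran over all of them, and a gene was called at an adjusted p under 0.05. Paralog ratios had an exact permutation test. The scripts were tested on simulated data. edgeR 4.0.16 and DESeq2 1.42.0 ran on the recovered reads and called 777 to 8034 and 1257 to 8687 genes in the 11 comparisons, where limma called 1222 to 8078. Lengths are those of the union of exons in GENCODE M21 (GRCm38), which held 97.8% of the identifiers. Promoter windows are from RefSeq.

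Replicate numbers come from the titles. Deviations of same-numbered libraries from their group means correlated at over 0.1 in all 3 pairs in 6 of 9 comparisons (not in MUNC spliced or MUNC genomic DM3 against GM, nor between the MUNC lines in DM3), so blocked values are given where they change a call. Between lines in GM these correlations were 0.456 to 0.727. Their median over all groups was 0.291, against -0.124 for libraries of different number. The main fit has no block, so the shares of all genes called come from an unblocked fit. All 10 genes were named in every comparison, with up to 4 other thin filament genes in each (the highest and lowest changes called), the levels of regulators and fibre type genes, and the most alike genes (those of Tnnc1 are not reported here). The members and lists were chosen with earlier results of these data known. Ube2c and Dnaaf3 were added after the annotation had been read.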

Additional observations from a re-analysis of the deposited data

Results flagged for a closer look

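2 members changed differently on differentiation from control by the interaction test in limma, 1 of 9 tested in each MUNC line. Over all tested genes 14.4% were called for MUNC spliced and 8.81% for MUNC genomic, so these counts were near the shares of all genes. Tnnc1 in MUNC spliced cells had an interaction of 1.86 (SE 0.49, limma adjusted p = 0.0211), or 1.25 (adjusted p = 0.00704) without MUNC spliced DM3 replicate 1, with a rise of 2.15 in that line and a change of 0.28 in control. Tpm1 in MUNC genomic cells had an interaction of 0.90 (SE 0.22, limma adjusted p = 0.017), with a rise of 0.79 in that line and a change of -0.10 in control. Over 28 alternatives the adjusted p of the first ranged from 0.000557 to 0.0566 and that of the second from 0.00147 to 0.0612.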

How the results depend on the processing

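Values of low genes carry the most uncertainty: at 38416702 to 68788327 reads per library, Tnnc2, Tnni3 and control Tnni1 rest on few reads. The count of members called in MUNC spliced against control in GM (3) was 5 with a pseudocount of 0.1, with only the groups compared, with edgeR and with DESeq2, and 1 with no filter on low values. In MUNC genomic against control in GM (1) it was 2 with a pseudocount of 0.1, with only the groups compared and with edgeR, 4 with DESeq2 and 0 with no filter. In MUNC genomic against control in DM3 (5) it was 3 with DESeq2 or with an absolute log2 change of at least 1, and in MUNC spliced against MUNC genomic in GM (2) it was 1 with that criterion. The MUNC spliced interaction (1) gave 0 with no filter and with only the groups compared, and 2 with the replicate block and with DESeq2. The MUNC genomic interaction (1) gave 0 with no filter, with quantile normalization and with an absolute log2 change of at least 1, and 3 with only the groups compared. Leaving out 1 library at a time gave 0 to 5, 0 to 2, 2 to 6, 1 to 3, 0 to 4 and 1 to 3 members in these 6 comparisons. By library, MUNC spliced against control in GM gave 1 without control GM replicate 2, 1 without MUNC spliced GM replicate 1, 0 without MUNC spliced GM replicate 2, 5 without MUNC spliced DM3 replicate 1. MUNC genomic against control in GM gave 0 without control GM replicate 1, 0 without MUNC genomic GM replicate 1, 0 without MUNC genomic GM replicate 2, 2 without MUNC spliced DM3 replicate 1. MUNC genomic against control in DM3 gave 2 without control DM3 replicate 1, 2 without MUNC genomic DM3 replicate 2. MUNC spliced against MUNC genomic in GM gave 1 without MUNC spliced GM replicate 1, 1 without MUNC genomic GM replicate 1. The MUNC spliced interaction gave 0 without control DM3 replicate 3, 3 without MUNC spliced DM3 replicate 1, 4 without MUNC spliced DM3 replicate 2, 2 without MUNC spliced DM3 replicate 3. The MUNC genomic interaction gave 3 without MUNC spliced DM3 replicate 1. Of the other thin filament genes, an absolute log2 change of at least 1 left 5 of 9 called in control DM3 against GM. In MUNC genomic DM3 against GM it left 5 of 10. It left 3 of 9 and 2 of 4 in MUNC spliced and MUNC genomic against control in GM, and 8 of 16 in MUNC spliced against control in DM3. With no limit on the change, that last comparison called 10 without MUNC spliced DM3 replicate 1, in place of 16. The causes were not tested. Shares of all genes called under these settings are not given here, and a setting can shift calls over all genes. These counts, and those above with a library left out, are thus no result about the members or the other thin filament genes as a set.

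The replicate block left 7 paralog ratios with adjusted p = 0.0521: Tnni1/Tnni2 in MUNC genomic against control (0.757), Tnnt1/Tnnt3 on differentiation (1.12), in MUNC spliced against control (-1.95) and against MUNC genomic (-1.71), Tnnt2/Tnnt3 in the same pairs of lines (-2.59 and -1.92) and Tpm1/Tpm2 in MUNC spliced against MUNC genomic (-0.835). For 6 of the 7, 64 arrangements allow no p under 0.0312. Among single genes the block changed 3 calls, for Tnni3 and Tnnt1, all given above, and no other call.

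Reversed signs occurred only for changes that had not passed. With a pseudocount of 0.1 they were Tnni1 in MUNC spliced against MUNC genomic GM (-0.00609), Tnnt3 in the MUNC spliced interaction (-0.188) and Tnnt1 in the MUNC genomic interaction (-0.828, and -0.260 with 0.5). With edgeR and DESeq2 they were Tnnt2 in MUNC spliced DM3 against GM (0.183 and 0.205), Tpm2 in MUNC spliced against control DM3 (0.00706 and 0.00616), Tnnt3 in the MUNC spliced interaction (-0.423 and -0.437) and, in the MUNC genomic interaction, Tnnt1 (-1.11 and -1.09) and Tnnt3 (-0.279 and -0.269). With edgeR alone Tpm1 reversed in the MUNC spliced interaction (0.0100). With quantile normalization they were Tpm1 in control DM3 against GM (0.0813) and MUNC spliced against control GM (0.0957), Tpm2 in MUNC genomic against control GM (0.0683, and 0.0388 with equal sums) and MUNC spliced against control DM3 (0.0784, and 0.000296 with equal sums), and Tnni1 in MUNC spliced against MUNC genomic GM (-0.178).

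Leaving out 1 library gave these ranges where a sign turned. On differentiation in MUNC spliced cells they were -0.468 to 0.00503 for Tnni3, -0.719 to 0.229 for Tnnt2, -0.261 to 0.000110 for Tpm1 and -0.135 to 0.302 for Tpm2. Against control they were, in MUNC genomic GM, -0.0604 to 0.379 for Tnni2, -0.0182 to 0.138 for Tpm1 and -0.160 to 0.0635 for Tpm2, in MUNC spliced DM3, -0.157 to 0.791 for Tnnt2 and -0.305 to 0.133 for Tpm2, and in MUNC genomic DM3, -0.190 to 0.152 for Tnnc1. Between the MUNC lines they were -0.285 to 0.236, -0.106 to 0.439 and -0.258 to 0.646 for Tnni1, Tnni3 and Tnnt1 in GM and -0.299 to 1.02 for Tnni1 in DM3. In the interactions they were -0.158 to 0.103 for Tpm1 in MUNC spliced and -0.476 to 0.428 for Tnnt1 in MUNC genomic cells. The paralog ratios that changed were Tnnt2/Tnnt3 in MUNC genomic against control (-0.890 to -0.429), Tnnt1/Tnnt2 in MUNC spliced against MUNC genomic (-0.0579 to 0.403), and Tpm1/Tpm2 in MUNC spliced (-0.555 to -0.363) and MUNC genomic against control (0.325 to 0.436).

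With the longest transcript as length, 19 shares moved by over 1 SD. Tnni3 was at 3.72% in MUNC spliced and 26.6% in MUNC genomic DM3. In MUNC spliced GM Tnnt2 was at 55.0% and Tnnt3 at 26.8%. In MUNC spliced DM3 Tnnt1 was at 32.2%, Tnnt2 at 10.4% and Tnnt3 at 57.4%, and in MUNC genomic DM3 70.3%, 9.77% and 19.9%. Tpm1 was at 32.9%, 33.3% and 38.7% in control, MUNC spliced and MUNC genomic GM and 34.3%, 35.3% and 49.9% in DM3, and Tpm2 at 23.0%, 15.2% and 23.3% in MUNC spliced GM, MUNC genomic GM and MUNC genomic DM3. The order of troponin T genes in DM3 was the same with both lengths in the MUNC lines, but in control DM3 Tnnt2 (12.5%) was then above Tnnt3 (11.9%). Tropomyosin order turned as well. Tpm1 was then above Tpm2 in control DM3 (34.3% against 25.3%) and in MUNC spliced DM3 (35.3% against 29.9%).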
